A study of Mus musculus with 6 samples.

Results

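Described here are 31 genes of cholesterol and fatty acid synthesis and of its control by SREBP, of 54532 in the deposited table. They were chosen by name and not by a rule on measured values, but with earlier results of these data known. By role they were 8 genes of the mevalonate branch, 11 of the sterol branch, 5 of SREBP control, 1 of sterol transport and 6 of fatty acid synthesis. All 31 were found in the table, and all 31 passed the filter on low counts that left 12491 genes for testing. RNA was sequenced from 6 libraries of the mouse cell line RAW264.7, which grows in culture and resembles macrophages: 3 control libraries, given the genotype WT, and 3 libraries given the genotype ERMAP Knockdown and the treatment shRNA. The design text asks which genes differ once ERMAP, a membrane protein of the butyrophilin family, is knocked down. The protocol text describes the ERMAP-shRNA lentivirus for every sample, controls included, and no label describes a non-targeting shRNA or an empty vector. Whether the replicates are separate cultures is not stated, so p-values speak only of how far these libraries spread, and that spread may be technical.

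Cells make cholesterol and fatty acids from acetyl-CoA. SREBP-1 and SREBP-2, encoded by Srebf1 and Srebf2, are transcription factors made as membrane precursors and held in the endoplasmic reticulum by SCAP and the INSIG proteins while sterol is plentiful. When sterol falls, SCAP carries them to the Golgi, where proteases release the active part, which binds sterol regulatory elements near synthesis genes. SREBP-2 is known mainly for cholesterol genes and SREBP-1 mainly for fatty acid genes. In macrophages this control is balanced against uptake of lipoproteins and removal of excess sterol, and intermediates of the sterol branch are ligands of liver X receptors.

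Summed counts ranged from 13447021 to 16602734 per library. All 8 macrophage markers checked passed the filter, and their summed level was 6768 to 7058 CPM (counts relative to library size, scaled between libraries by the TMM method) in control and 6719 to 6836 CPM in the group with the shRNA label. No marker of T cells, B cells, neutrophils, fibroblasts, epithelium, adipocytes or hepatocytes exceeded 0.399 CPM in any library. Cd3d, Cd3e, Cd3g, Cd8a, Ms4a1, S100a8, S100a9, Ly6g, Adipoq, Apoa1 and Ttr were listed at 0 throughout. Ermap, the stated target, was read 12, 12 and 3 times in control, and 10, 21 and 14 times where the label is ERMAP shRNA. Its log2 fold change (labelled ERMAP shRNA over control, as for every fold change here) was 0.81 (SE 0.52; interval at 95% from -0.39 to 2.03; adjusted p by edgeR 0.929), so its RNA was not lower under the shRNA label, and directions below are between labels. Control replicate 1 stood apart: 3.69% of its counts were mitochondrial against 1.71% to 2.18% elsewhere, and genes of low GC content were high in it. Results are therefore given with all libraries and also without it.

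The synthesis genes were expressed at levels that differed widely within each role. On the deposited FPKM scale (reads scaled to gene length and library size), which allows genes to be compared per length, mean levels over the 6 libraries ran from 1.35 for Tm7sf2 to 222 for Fads2, and 24 of 31 genes had at least 10 FPKM. The 2 desaturases led, with Fads2 at 222 and Fads1 at 135, followed by Acly at 88.2, Srebf2 at 66.0, Fasn at 64.7, Srebf1 at 45.8 and Mvd at 44.6. Sterol genes lay lower on this scale, led by Sqle at 30.1 and Cyp51 at 28.5. The order depends on the deposited gene lengths, such as 1508 bases for Fads2, 3456 for Fads1 and 10787 for Lss. In CPM, which is not scaled to length, Fads1 (443 to 482) was above Fads2 (296 to 365) in every library. Summed over the 31 genes, FPKM was 933, 981 and 1009.5 in control replicates 1 to 3 and 1060.5, 1064 and 1074 in the libraries labelled ERMAP shRNA. The control libraries were thus the 3 lowest sums, and the 6 fatty acid genes gave the largest part of each one (471, 505 and 528 against 542, 560.5 and 563). Genes of high FPKM weigh most in such a sum. Fads2 alone had a mean of 206 FPKM in control and 238 FPKM in the labelled group. The sums were not compared with those of other sets of genes. Summed FPKM of the 11 sterol genes was 187, 158 and 158 in control and 179, 180.3 and 178 in the other group, so there control replicate 1 was the highest library.

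**Figure D1:**
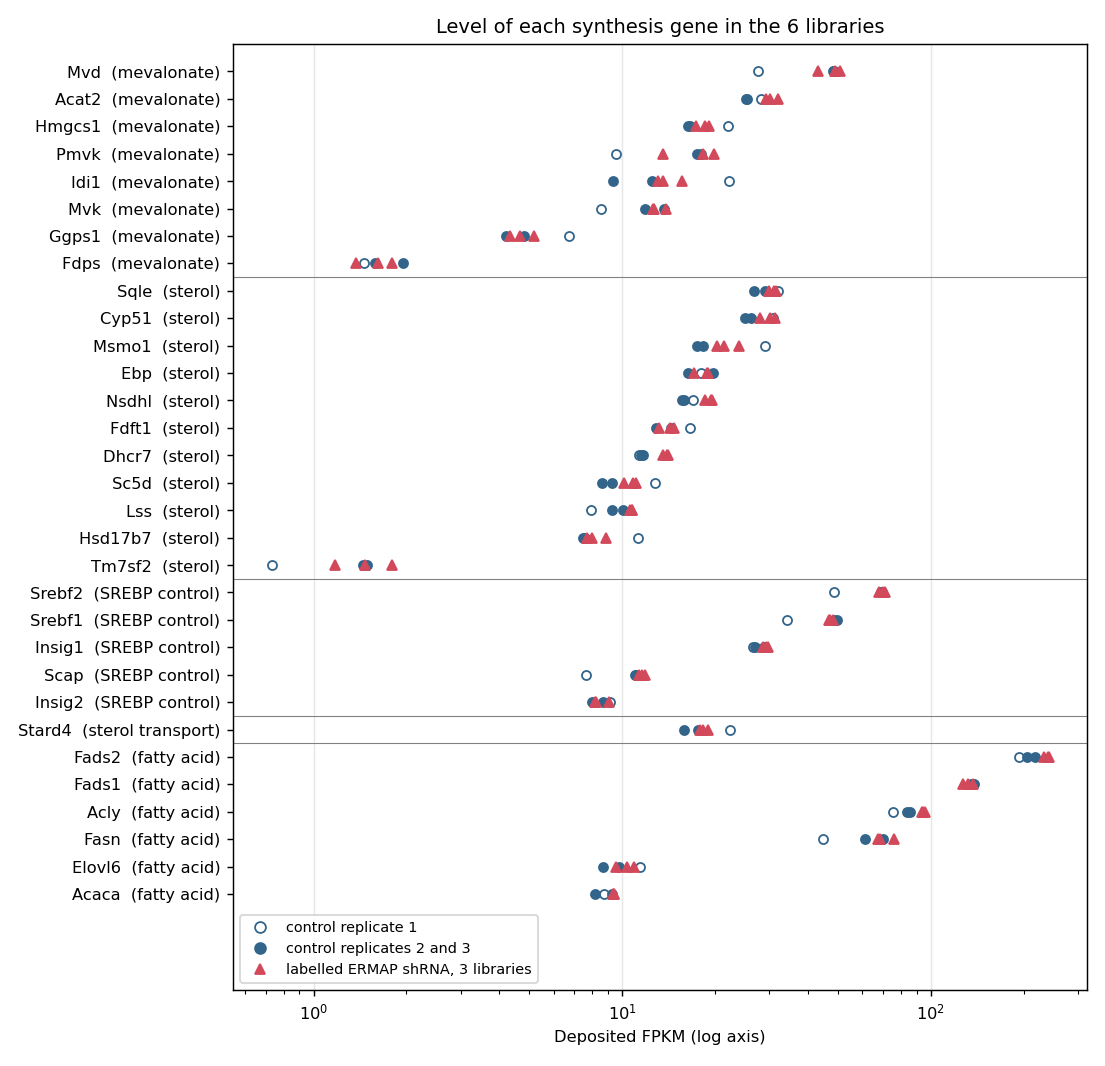
Deposited FPKM of the 31 synthesis genes, on a log axis, grouped by role and ordered by level; open circles are control replicate 1, filled circles control replicates 2 and 3, and triangles the 3 libraries labelled ERMAP shRNA. Levels run from 1.35 FPKM (Tm7sf2) to 222 FPKM (Fads2) as means over libraries, and control replicate 1 is often the library farthest from the rest.

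With all 6 libraries, none of the 31 genes passed the test in either direction: 0 were higher and 0 lower by edgeR with an adjusted p under 0.05, against 1.01% of all tested genes called higher and 0.136% called lower. DESeq2 also called 0 in each direction. The lowest adjusted p was 0.432, for Dhcr7. Before adjustment, 4 genes had a p under 0.05 and were higher (Dhcr7, Nsdhl, Acly and Fads2), and 0 were lower, where all tested genes gave 3.71% higher and 3.04% lower. The fold changes themselves were small, from -0.15 (Ggps1) to 0.27 (Tm7sf2 and Fasn) on the log2 scale, with a median of 0.10 against -0.01 over all tested genes. They were above 0 in 22 of 31 genes, against 48.3% of all tested genes. The 95% intervals stayed within a 2-fold change in either direction for 31 of 31 genes and within a 1.5-fold change for 24. In 8 genes every library labelled ERMAP shRNA was above every control library (Acat2, Lss, Nsdhl, Dhcr7, Scap, Acly, Acaca and Fads2), and in 0 genes below, against 7.74% and 6.47% of all tested genes. In Lss, Dhcr7, Scap, Acly and Fads2 the lowest control library was control replicate 1. In bulk RNA, fewer cells making a transcript and less of it per cell cannot be told apart.

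Control replicate 1 lay at an extreme for most of these genes. It was the highest of the 6 libraries in 11 genes and the lowest in 13. Relative to the mean of control replicates 2 and 3, it was 1.03 higher on the log2 scale for Idi1, whose transcripts have 40.6% GC, and it stood at -0.99 for Tm7sf2, with 56.2% GC. Across the 31 genes the deviation fell with GC content (Spearman rho -0.835), as it did across 10104 protein-coding genes (rho -0.799). These are correlations across genes measured in the same libraries, and no p is given. Among the 15 genes under 50% GC, control replicate 1 was the highest control in 12. Among the 16 genes at 50% GC or more, it was the lowest control in 13. Leaving it out moved the median log2 fold change of the low-GC genes from 0.02 to 0.13, and that of the high-GC genes from 0.20 to 0.03. Fdft1 went the other way for its 54.0% GC, with a deviation of 0.30. ERMAP shRNA replicate 2 deviated in the same sense (rho -0.546 over the 31 genes). What set control replicate 1 apart was not tested.

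**Figure D2:**
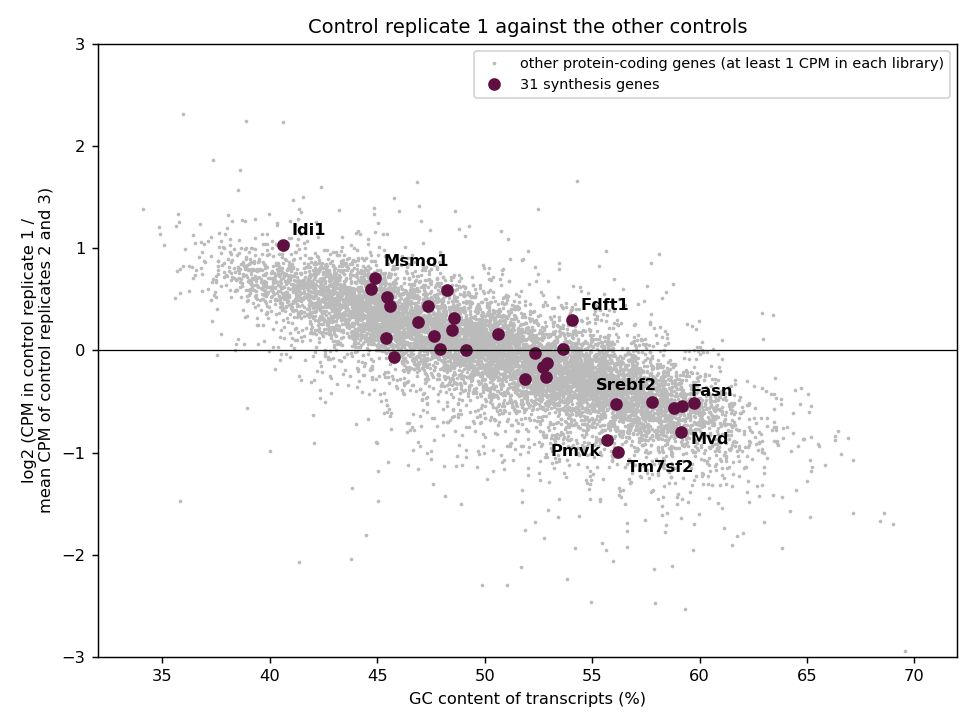
Deviation of control replicate 1 from the mean of control replicates 2 and 3 (log2 of the CPM ratio) against the GC content of transcripts in percent, for the 31 synthesis genes (large points) and the other protein-coding genes with at least 1 CPM in each library (small points). Idi1 lies at 1.03 and Tm7sf2 at -0.99, and the synthesis genes follow the slope of the other genes.

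The control libraries also spread more than the others. Over the 31 genes the coefficient of variation had a median of 15.1% in control (range 1.28% to 45.9%) and 5.04% in the libraries labelled ERMAP shRNA (0.428% to 20.8%). In 29 of 31 genes it was lower in the labelled group. Between control replicates 2 and 3 alone the median was 4.55%. Dhcr7 and Fads1 were the exceptions: their 3 control libraries lay within 66.8 to 68.5 CPM and 469.9 to 482 CPM.

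**Figure D3:**
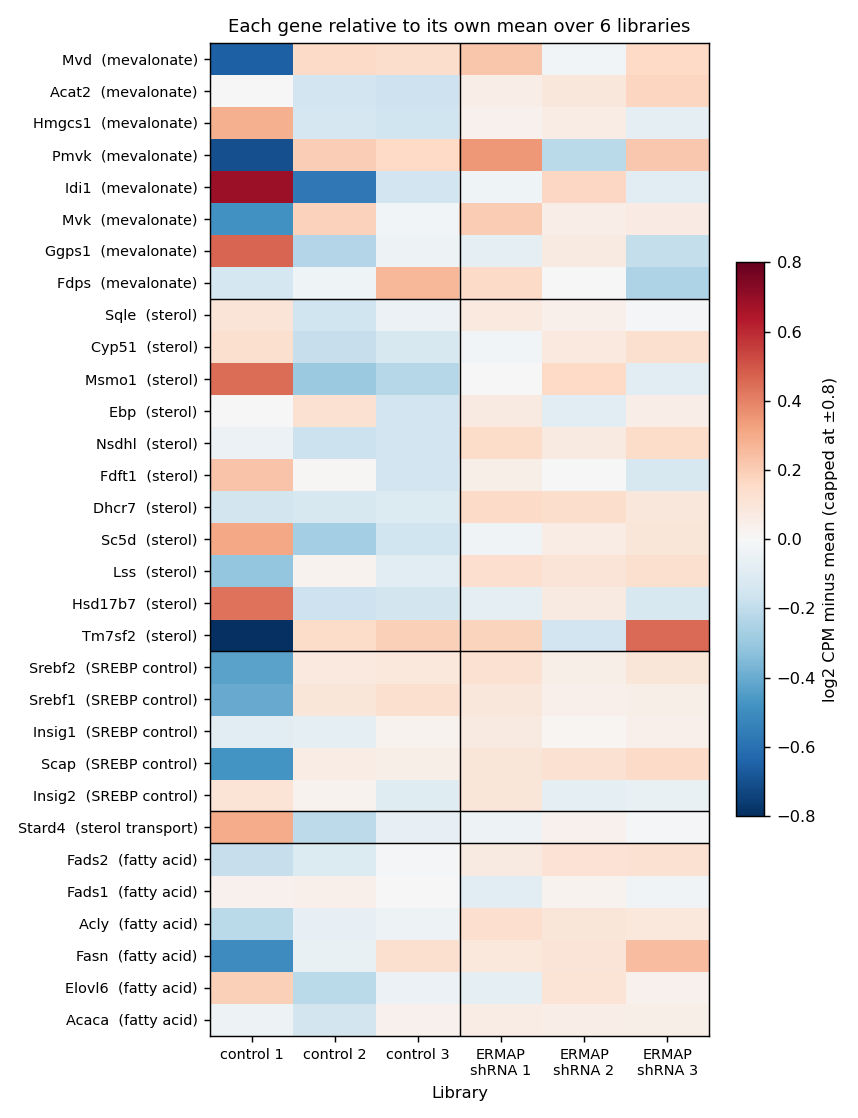
Level of each synthesis gene in each library as log2 CPM minus the gene's mean over 6 libraries, red above and blue below that mean, with colours capped at 0.8 in each direction. Control replicate 1 holds the strongest colours in both directions, and most genes show weaker colours in the other 5 libraries.

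Without control replicate 1, 3 of the 31 genes rose and 0 fell: Msmo1, Acat2 and Nsdhl, at edgeR adjusted p values of 0.0267, 0.0440 and 0.0489. Acat2 is a mevalonate gene, and Msmo1 and Nsdhl are sterol genes. Those roles held 8 and 11 of the 31 genes, and fatty acid synthesis held 6. With a correction for GC content, given below, the fatty acid genes Acly and Fads2 were called as well. In the same fit 2.67% of all tested genes were called higher and 2.19% lower. Before adjustment, p was under 0.05 for 10 higher and 0 lower genes, where all tested genes gave 7.81% and 8.54%. Fold changes were above 0 in 25 of 31 genes, against 48.6% of all tested genes, and their median was 0.10 against -0.01. Every labelled library was above both remaining controls in 16 genes, and below both in 1 (Srebf1), against 16.8% and 16.1% of all tested genes. The intervals were narrower than with 6 libraries, within a 1.5-fold change for 30 of 31 genes. Idi1 was the exception, with an interval of 0.13 to 0.60.

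These 3 calls rested on few libraries and on the tool. Leaving out 1 labelled library as well, Acat2 had edgeR adjusted p values of 0.0626 without ERMAP shRNA replicate 1 and 0.173 without replicate 3. Nsdhl kept its call only without ERMAP shRNA replicate 2 (adjusted p = 0.0218), with 0.135 and 0.121 without replicates 1 and 3. Msmo1 lost its call without ERMAP shRNA replicate 2 (0.0634). With control replicate 2 or 3 as the only control, log2 fold changes were 0.25 to 0.27 for Acat2 and 0.27 to 0.29 for Nsdhl. Those for Msmo1 were 0.25 to 0.32. Such fits hold no spread among controls, so no p is given for them. DESeq2 without control replicate 1 called Msmo1 alone (adjusted p = 0.0317). In the same libraries limma-voom called all 3, at adjusted p values of 0.0488 (Acat2), 0.0494 (Nsdhl) and 0.0328 (Msmo1). A limma fit of log2(FPKM + 1) called none of the 3, at 0.0860, 0.0665 and 0.160 in that order. With each library also corrected for its own trend with GC content, 5 genes were called, against 3.55% of all tested genes called higher: Acat2 (0.00942), Dhcr7 (0.00892), Msmo1 (0.0146), Acly and Fads2 (both 0.0391), while Nsdhl was not (0.0626). The fold changes of Acat2, Nsdhl and Msmo1 moved less than their p values, between 0.21 and 0.34 over the 11 fits made without control replicate 1.

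**Figure D4:**
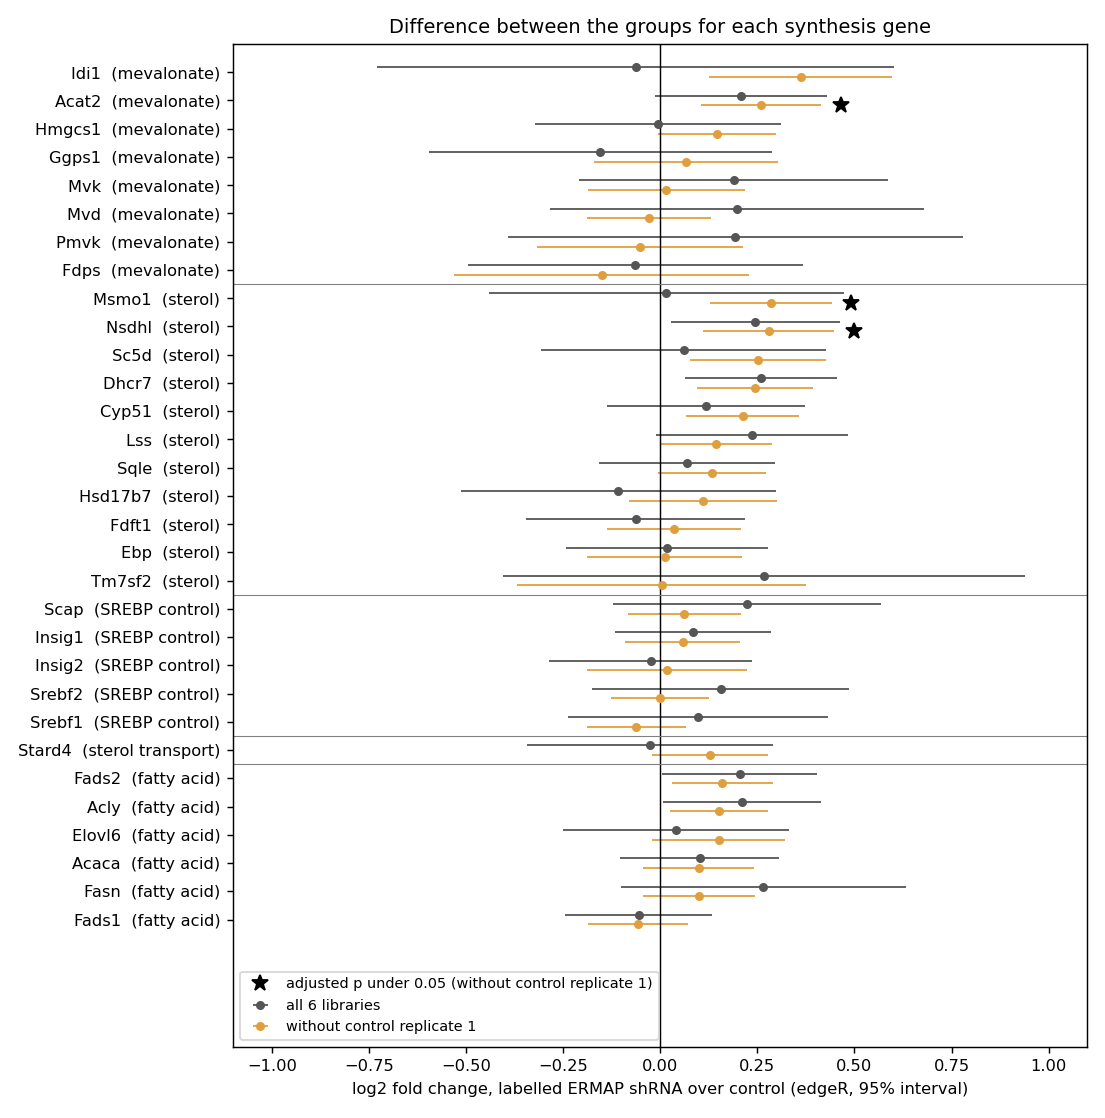
Log2 fold change of each synthesis gene with its 95% interval from edgeR, with all 6 libraries (dark) and without control replicate 1 (orange), and stars at an adjusted p under 0.05. Stars stand at Acat2, Nsdhl and Msmo1 without control replicate 1 and nowhere with 6 libraries.

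To show what lies upstream of the genes that rose, the 250 bases before the RefSeq start are given for Acat2, Nsdhl and Msmo1. Hmgcs1 is added because, of the 26 genes whose promoter could be searched, it alone held the classic sterol regulatory element. Sequences are from RefSeq on GRCm38.p6, 5′ to 3′ on the strand of the gene, and lie at chr17:12960726-12960975 (minus strand), chrX:72918271-72918520 (plus), chr8:64733579-64733828 (minus) and chr13:119690101-119690350 (plus). Capitals mark matches on either strand to TCACNCCAC (sterol regulatory element), CCAAT (the NF-Y box) and GGGCGG (the Sp1 box); NF-Y and Sp1 are factors known to act with SREBPs.
Acat2: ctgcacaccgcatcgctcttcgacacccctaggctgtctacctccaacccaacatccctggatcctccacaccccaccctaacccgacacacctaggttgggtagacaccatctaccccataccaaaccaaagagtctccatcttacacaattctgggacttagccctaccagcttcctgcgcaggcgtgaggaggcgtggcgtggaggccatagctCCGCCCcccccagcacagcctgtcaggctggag
Nsdhl: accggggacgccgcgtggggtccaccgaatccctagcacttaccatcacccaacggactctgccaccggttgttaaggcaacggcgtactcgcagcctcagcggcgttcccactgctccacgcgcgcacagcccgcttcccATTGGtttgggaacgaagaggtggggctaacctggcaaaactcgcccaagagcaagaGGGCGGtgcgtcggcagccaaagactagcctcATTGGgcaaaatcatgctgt
Msmo1: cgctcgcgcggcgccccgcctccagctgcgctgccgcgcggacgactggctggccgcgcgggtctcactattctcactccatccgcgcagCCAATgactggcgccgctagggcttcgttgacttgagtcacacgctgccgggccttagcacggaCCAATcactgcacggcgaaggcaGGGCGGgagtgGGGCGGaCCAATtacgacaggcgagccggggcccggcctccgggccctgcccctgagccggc
Hmgcs1: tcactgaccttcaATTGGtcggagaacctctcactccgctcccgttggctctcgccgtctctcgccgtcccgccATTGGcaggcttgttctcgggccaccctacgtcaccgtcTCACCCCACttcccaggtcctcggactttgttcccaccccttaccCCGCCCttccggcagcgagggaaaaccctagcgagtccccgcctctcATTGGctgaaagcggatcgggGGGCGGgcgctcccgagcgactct
Acat2 held 1 Sp1 box, 33 bases before the start, and neither of the other motifs. Nsdhl held 2 NF-Y boxes, at 109 and 20 bases, and 1 Sp1 box at 52. Msmo1 held 3 NF-Y boxes, at 160, 96 and 55 bases, and 2 Sp1 boxes. Hmgcs1 held the sterol regulatory element at 137 bases with 3 NF-Y and 2 Sp1 boxes. Of the 3 genes called without control replicate 1, Nsdhl and Msmo1 thus held both NF-Y and Sp1 boxes, and Acat2 a Sp1 box alone. Both boxes were frequent over the set: in the same 250 bases, 20 of the 26 searched genes held the NF-Y box and 21 the Sp1 box. Hmgcs1 was not called in that fit (log2 fold change 0.15, edgeR adjusted p = 0.331). Any relation between the motifs and the fold changes was not tested.

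Promoters from 250 bases before to 50 bases after the start were matched for 26 of the 31 genes (34 promoters). The sterol regulatory element letters were in 1 of 34, against 1.24% of 32851 promoters of that length. The NF-Y box was in 22 of 34 (64.7%), against 37.4% of all promoters, and the Sp1 box in 25 of 34 (73.5%), against 35.7%. ATTGG, the reverse of the NF-Y box, can share bases with GGGCGG, but no matches overlap in the 4 sequences printed. A match is a description of letters and shows neither a binding site nor its absence, and SREBP sites with other letters were not searched.

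The 5 genes of SREBP control passed the test in neither edgeR fit, in either direction. Srebf2 had 353, 501 and 502 CPM in control and 515, 489 and 507 CPM in libraries with the ERMAP shRNA label. Control replicate 1 was far below the other 5 libraries, which lay within 489 to 515 CPM. The log2 fold change was 0.16 (SE 0.14, adjusted p = 0.937), and without that library it was -0.00 (95% interval -0.13 to 0.13). Srebf1, the factor tied to fatty acid genes, had 195, 276 and 282 CPM in control and 275, 265.1 and 267 CPM in the group with the shRNA label. Again control replicate 1 was the only low library, and without it the labelled libraries were all slightly below the controls (log2 fold change -0.06, 95% interval -0.19 to 0.07, adjusted p = 0.698). Srebf1 overlaps Rai1 by 109 bases on the opposite strand. The escort protein gene Scap followed the same pattern, with a log2 fold change of 0.22 with all libraries and 0.06 without control replicate 1. Insig1, itself a known SREBP target, had 83.2 to 90.0 CPM in control and 89.0 to 92.8 CPM in the group with the shRNA label, ranges that overlap, and log2 fold changes of 0.08 and, without control replicate 1, 0.06. Insig2 had 27.9 to 32.2 and 28.4 to 31.8 CPM, and fold changes of -0.02 and 0.02. Without control replicate 1, the intervals of all 5 genes lay between -0.19 and 0.22.

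The 8 mevalonate genes carry acetyl-CoA to the isoprenoid units and chains. Of these, 0 passed the test with 6 libraries and 1 (Acat2) without control replicate 1. Among all tested genes, 1.01% and 2.67% were called higher in these fits. Acat2 (ENSMUSG00000023832, chr17:12942890-12960747 in mm10, minus strand) encodes the cytosolic thiolase that joins acetyl-CoA units at the head of the pathway. It had 72.7, 65.2 and 64.6 CPM in control and 75.3, 77.2 and 81.6 CPM in libraries with the ERMAP shRNA label. All 3 labelled libraries lay above all 3 controls, and control replicate 1 was the nearest to them. Means were 67.5 ± 4.55 CPM and 78.0 ± 3.21 CPM (SD, n = 3 each). Its log2 fold change was 0.21 (SE 0.10; -0.01 to 0.43 at 95%; edgeR adjusted p = 0.777), and 0.26 (SE 0.07, 0.11 to 0.41, adjusted p = 0.0440) without control replicate 1.

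Mvd, the decarboxylase that yields isopentenyl diphosphate and the most abundant mevalonate gene per length, had 52.0, 90.8 and 90.3 CPM in control and 95.5, 80.5 and 91.5 CPM in the group with the shRNA label. Control replicate 1 was low and the other 5 libraries overlapped. Its log2 fold change was 0.20 with 6 libraries and -0.03 (95% interval -0.19 to 0.13) without control replicate 1. Idi1, the isomerase that follows and a gene named here after its values were seen, was the reverse case. It had 78.6, 32.9 and 44.0 CPM in control and 47.8, 54.8 and 46.0 CPM in the group with the shRNA label. Control replicate 1 was the highest library and control replicate 2 the lowest, and the fold change went from -0.06 (95% interval -0.73 to 0.60) to 0.36 (0.13 to 0.60, adjusted p = 0.0800) once control replicate 1 was left out. With control replicate 2 as the only control the fold change was 0.58, and with control replicate 3 as the only control it was 0.17.

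The other mevalonate genes showed no difference past the test. Hmgcs1, which makes HMG-CoA, had 75.6 to 103 CPM in control and 79.8 to 87.9 CPM in the group with the shRNA label, with a log2 fold change of -0.01, or 0.15 without control replicate 1. The kinases Mvk and Pmvk had log2 fold changes of 0.19 and 0.19 with 6 libraries and 0.02 and -0.05 without control replicate 1. Ggps1, which makes geranylgeranyl diphosphate, went from -0.15 to 0.07, and overlaps Arid4b by 257 bases on the opposite strand. Fdps, the farnesyl diphosphate synthase, was listed at a low level for its pathway, 5.79 to 8.25 CPM over all libraries and 1.63 FPKM on average, with log2 fold changes of -0.06 and, without control replicate 1, -0.15. On the same strand Fdps shares 7512 bases of its gene model with Gm43738 and 104 with Gm22935. Those had means of 0.17 and 9.83 counts per library, against 103 for Fdps. Reads shared with them or with near-identical copies could be lost or split in the counting, so the level of Fdps is uncertain.

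In the sterol branch, which turns farnesyl diphosphate through squalene and lanosterol into cholesterol, 0 of 11 genes passed the test with 6 libraries and 2 (Msmo1 and Nsdhl) without control replicate 1. Fold changes were above 0 in 9 of the 11 genes and in 11 of 11 without that library, with medians of 0.07 and 0.14. Over all tested genes, 48.3% and 48.6% were above 0 in these fits, and 1.01% and 2.67% were called higher. Msmo1 and Nsdhl encode consecutive activities, the methylsterol oxidase and the sterol dehydrogenase that together remove the methyl groups at carbon 4 of the sterol ring. Msmo1 (ENSMUSG00000031604, chr8:64718139-64733792, minus strand) had 181, 108 and 113 CPM in control and 133, 148 and 125 CPM in libraries with the ERMAP shRNA label. Control replicate 1 was the highest of all libraries, and the labelled libraries lay between it and the other 2 controls. Means were 134 ± 40.4 CPM and 135 ± 11.7 CPM (SD, n = 3 each), with a log2 fold change of 0.02 (SE 0.20, adjusted p = 0.995). Without control replicate 1 it was 0.28 (SE 0.08, 95% interval 0.13 to 0.44, adjusted p = 0.0267), so the rise of Msmo1 exists only without that library.

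Nsdhl (ENSMUSG00000031349, chrX:72918557-72958514, plus strand) had 49.0, 44.8 and 45.4 CPM in control and 56.0, 53.1 and 55.9 CPM in the group with the shRNA label. The groups did not overlap, whichever controls were used. Means were 46.4 ± 2.24 CPM and 55.0 ± 1.63 CPM (SD, n = 3 each). The log2 fold change of Nsdhl was 0.25 (SE 0.09; 0.03 to 0.46 at 95%; edgeR adjusted p = 0.596) with 6 libraries and 0.28 (SE 0.08, 0.11 to 0.45, adjusted p = 0.0489) without control replicate 1. Dhcr7, the reductase of the last step in one arm of the pathway and named here after its values were seen, had 66.8, 67.7 and 68.5 CPM in control and 82.5, 81.7 and 79.0 CPM in the group with the shRNA label. The groups did not overlap and each was tight, at 67.7 ± 0.866 CPM and 81.0 ± 1.83 CPM (SD, n = 3 each). Its log2 fold change was 0.26 (SE 0.09, 95% interval 0.06 to 0.46), with an unadjusted p of 0.0161 and an edgeR adjusted p of 0.432, and without control replicate 1 the adjusted p was 0.0547. The model shares its estimate of spread among genes, and the common dispersion was 0.0233 with 6 libraries and 0.00450 without control replicate 1.

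Sqle, the squalene epoxidase, had 179.8, 150.0 and 162 CPM in control and 177, 173 and 167 CPM in the group with the shRNA label. The control range enclosed the labelled range, and the log2 fold change was 0.07 (adjusted p = 0.949). Without control replicate 1 the labelled libraries were above both controls, with a log2 fold change of 0.13 (adjusted p = 0.328). Cyp51, the lanosterol demethylase, had 138, 111 and 116 CPM in control and 125, 133 and 138 CPM in the group with the shRNA label. The labelled libraries were above control replicates 2 and 3, and only ERMAP shRNA replicate 3 (138.3 CPM) was above control replicate 1 (138.2 CPM). Its log2 fold change was 0.12 with all libraries and 0.21 (adjusted p = 0.0924) without control replicate 1, and it overlaps Akap9 by 166 bases on the opposite strand. Lss, the lanosterol synthase, had 86.4, 109 and 100.5 CPM against 117, 115 and 117 CPM, groups that did not overlap. For Lss the log2 fold change was 0.24 (adjusted p = 0.773), and 0.14 (adjusted p = 0.305) without control replicate 1, its lowest library. Sc5d, the desaturase of a late step, had a log2 fold change of 0.06, and of 0.25 (adjusted p = 0.102) without control replicate 1.

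The remaining sterol genes did not differ past the test in either fit. Hsd17b7, the ketoreductase that acts with Msmo1 and Nsdhl, went from -0.11 to 0.11 without control replicate 1, and Ebp, the sterol isomerase, from 0.02 to 0.01. Fdft1, the squalene synthase, went from -0.06 to 0.03. It overlaps Ctsb (cathepsin B) on the opposite strand by 774 bases, and Ctsb had a mean of 18188 counts per library against 911 for Fdft1. The strand setting of the counting is not given in the sources used here, so how such shared bases were counted cannot be told, and this holds for each overlap named. Tm7sf2, a sterol reductase, was scarce (4.15 to 10.05 CPM) and shares 9356 bases of its gene model with Vps51 on the same strand. For Tm7sf2 the log2 fold change was 0.27 with 6 libraries and 0.0035 without control replicate 1. Stard4, which carries cholesterol between membranes, had 127, 89.4 and 98.8 CPM in control and 101, 106 and 103 CPM in the group with the shRNA label. Control replicate 1 was the highest library and control replicate 2 the lowest, and the log2 fold change was -0.03, or 0.13 (adjusted p = 0.405) without control replicate 1.

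**Figure D5:**
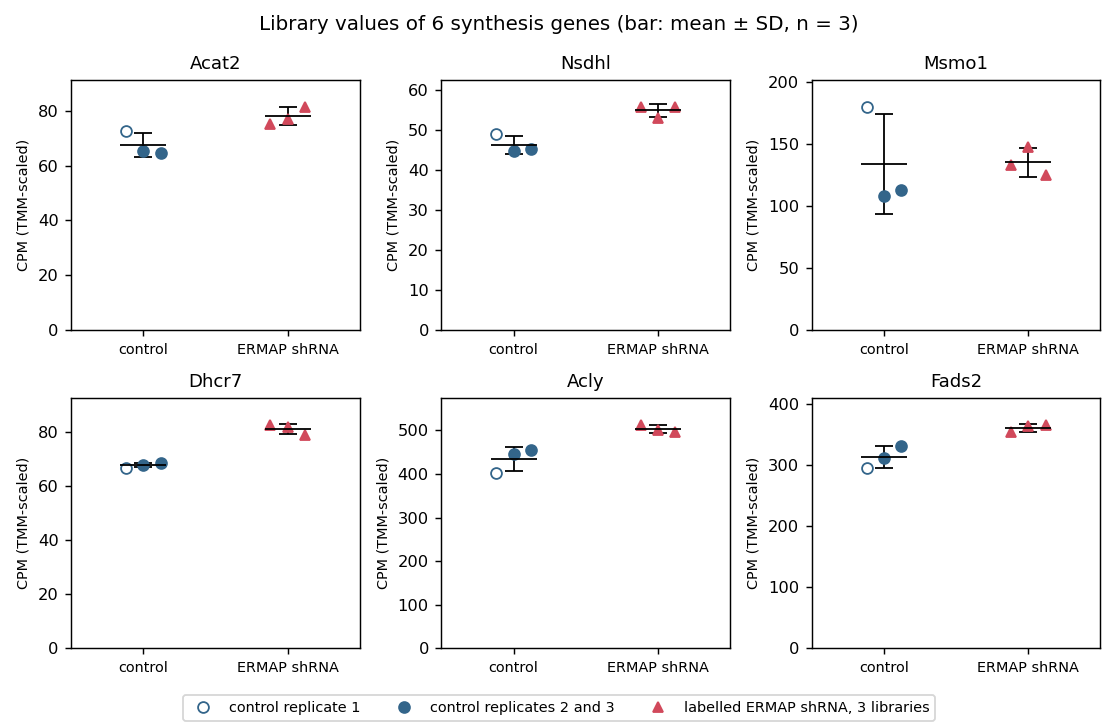
CPM in each library (points) with mean ± SD over 3 libraries (bars) for the 3 genes called without control replicate 1 (Acat2, Nsdhl, Msmo1) and for 3 others at an unadjusted p under 0.05 with all libraries (Dhcr7, Acly, Fads2); axes start at 0. The groups overlap only for Msmo1, through control replicate 1 at 181 CPM.

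The 6 fatty acid genes gave 0 calls in both edgeR fits, and their fold changes were above 0 in 5 of 6 in each. Over all tested genes, 1.01% and 2.67% were called higher, and 48.3% and 48.6% were above 0. Fads2, the first desaturase of polyunsaturated fatty acid synthesis and the most abundant gene of the set per length (FPKM), had 296, 311 and 332 CPM in control and 353, 363 and 365 CPM in libraries with the ERMAP shRNA label. The groups did not overlap. The log2 fold change was 0.20 (SE 0.09, adjusted p = 0.713), and 0.16 (adjusted p = 0.172) without control replicate 1. Fads1, the partner desaturase that lies 81384 bases from Fads2 on chromosome 19, had 480.5, 482 and 469.9 CPM in control and 443, 477 and 459 CPM in the group with the shRNA label. There the groups overlapped, with a log2 fold change of -0.06 in both fits (adjusted p = 0.949 with 6 libraries), the only fatty acid gene below 0.

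Acly, which makes cytosolic acetyl-CoA from citrate and is named in full after its values were seen, had 404, 447 and 455 CPM in control and 512, 501 and 497 CPM in the group with the shRNA label. The groups did not overlap, and the log2 fold change was 0.21 (SE 0.09, adjusted p = 0.707), or 0.15 (adjusted p = 0.185) without control replicate 1. Fasn, the fatty acid synthase, had 496, 677 and 771 CPM against 746, 755 and 837 CPM. Control replicate 1 was the lowest library, control replicate 3 lay among the labelled ones, and the fold change went from 0.27 to 0.10 without control replicate 1. Acaca, the carboxylase that commits acetyl-CoA to fatty acids, had a log2 fold change of 0.10 in both fits. Its labelled libraries were all just above its highest control, at 161 to 162 CPM against 159.6 CPM. Elovl6, the elongase of long saturated chains, had 56.2 to 74.4 CPM in control and 61.9 to 70.4 CPM in the group with the shRNA label, with log2 fold changes of 0.04 and, without control replicate 1, 0.15 (adjusted p = 0.389).

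Other genes around the same pathways were read from lists of 55 names, of which 51 were tested, and 0 passed the test in either direction with 6 libraries, against 1.01% higher and 0.136% lower over all tested genes. The lists hold SREBP processing and sterol sensing (13 of 13 tested), isoprenoid use (13 of 13), further fatty acid genes (15 of 17) and sterol esterification, movement and side-chain oxidation (10 of 12). The median fold change was 0.02 over the 51 genes. Without control replicate 1, 0 were higher and 1 lower: Osbpl9, a member of the oxysterol-binding protein family, where 2.67% of all tested genes were called higher and 2.19% lower. Osbpl9 had 147, 111 and 104 CPM in control and 88.6, 92.8 and 89.5 CPM in the group with the shRNA label, so every labelled library was below every control. Its log2 fold change was -0.42 (adjusted p = 0.444) with 6 libraries and -0.26 (adjusted p = 0.0305) without control replicate 1. Paqr3, a Golgi anchor of SCAP, was the only other listed gene at an unadjusted p under 0.05 with 6 libraries, at 3.5 ± 0.341 CPM in control and 5.53 ± 0.922 CPM in the group with the shRNA label (SD, n = 3 each; log2 fold change 0.66, edgeR adjusted p = 0.360; 0.58 and 0.150 without control replicate 1).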

How the data were processed

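RNA of 6 RAW264.7 libraries, 3 per group, was read from tables of 54532 genes. The authors deposited whole-number read counts and FPKM per library, and the submitters' processing notes name HISAT2 and the build mm10. Not given in the sources used here are the counting program, its strand setting and the annotation release. Columns were mapped to groups by name, and replicate numbers are those of the columns.

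Counts were tested with edgeR 4.0.16 (quasi-likelihood, TMM, filterByExpr with minimum count 10, robust dispersion, R 4.3.3), with Benjamini-Hochberg adjustment over all tested genes and calls at an adjusted p under 0.05. Intervals are 95%, from the same model. FPKM were used for levels between genes. GC content came from GENCODE vM21 transcripts, and the GC correction was a lowess offset per library (span 0.3). Alternatives were DESeq2 1.42.0, limma 3.58.1 (voom, and log2(FPKM + 1) or log2(FPKM + 0.1)), other scalings and filters, a replicate block, GC offsets and each library left out. Scripts were tested on simulated data.

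The 31 genes and the lists were chosen with earlier results of these data known. All 31 are named; library values are given for genes called in either fit and for the 2 most abundant of each role; Dhcr7, Idi1, Lss, Acly and Fasn were added after their values were seen. No pair of replicate libraries agreed within sampling noise.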

Additional observations from a re-analysis of the deposited data

How the results depend on the processing

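The count of 0 genes called higher among the 31 was the same under each alternative with all 6 libraries, and ranged from 0 to 3 when 1 library was left out (3 without control replicate 1), while 0 were called lower throughout. Without control replicate 1 the count of 3 became 1 with DESeq2, 0 with log2(FPKM + 1) and 5 with GC offsets. It was at most 2 when a labelled library was left out as well. Of all tested genes, edgeR called 2.67% higher without control replicate 1, and 3.55% with GC offsets added. Shares under the other alternatives are not given here. With no filter on low counts, Nsdhl lost its call (edgeR adjusted p = 0.0567) and Idi1 gained one (0.00563). Among the 51 other pathway genes 1 was lower with GC offsets, and 0 to 1 with a library left out. Deviations of same-numbered libraries from their group means showed no common direction (correlations were -0.13, -0.28 and 0.18). Such deviations include the shift of control replicate 1, so they cannot tell whether libraries were prepared in pairs. The replicate block gave 81 genes higher and 3 lower of all tested genes, with 0 of the 31. For all tested genes the 126 higher became 81 with log2(FPKM + 1) and no filter, 252 with GC offsets, and 73 to 342 with a library left out. The 17 lower became 58 with DESeq2, 32 with no filter, 5 with log2(FPKM + 1) and no filter, 127 with GC offsets, 66 with GC offsets and the replicate block, and 3 to 280 with a library left out.

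Of 558 recomputed fold changes of the 31 genes, 43 changed sign, in 16 genes. In the fit of all 6 libraries none of these 16 was called, and none had a fold change beyond 0.20 in size; Msmo1, among them, was called without control replicate 1. The causes were not tested. With limma-voom, log2(FPKM + 1), log2(FPKM + 0.1), log2(FPKM + 1) with no filter, the replicate block, GC offsets, and GC offsets with the block, Hmgcs1 became 0.0081, 0.010, 0.012, 0.010, 0.0069, 0.061 and 0.062, and Idi1 0.036, 0.024, 0.031, 0.024, 0.025, 0.13 and 0.15. With GC offsets, alone and with the block, Insig2 became 0.0021 and 0.0014, and Stard4 0.012 and 0.018. With a library left out, the ranges were -0.083 to 0.15 for Hmgcs1, -0.052 to 0.34 for Pmvk, -0.029 to 0.32 for Mvd, -0.31 to 0.36 for Idi1, -0.16 to 0.065 for Fdps, -0.30 to 0.067 for Ggps1, -0.15 to 0.035 for Fdft1, -0.12 to 0.28 for Msmo1, -0.22 to 0.11 for Hsd17b7, -0.048 to 0.083 for Ebp, -0.057 to 0.25 for Sc5d, -0.061 to 0.19 for Srebf1, -0.00028 to 0.24 for Srebf2, -0.076 to 0.017 for Insig2, -0.13 to 0.13 for Stard4 and -0.055 to 0.15 for Elovl6.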

Other observations

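The ratio of Fads2 to Fads1 on the FPKM scale was 1.41, 1.48 and 1.62 in control and 1.83, 1.745 and 1.82 in the libraries labelled ERMAP shRNA, so the groups did not overlap. The transcripts have 52.9% and 53.7% GC, and control replicate 1 was the lowest of the controls for this ratio. The ratio of Srebf2 to Srebf1 was 1.42, 1.42 and 1.395 in control and 1.47, 1.45 and 1.49 in the labelled group, also without overlap. The ratio of Insig1 to Insig2 was 2.905 to 3.63 in control and 3.27 to 3.57 in the labelled group. That of Scap to Insig1 was 0.287 to 0.411 in control and 0.382 to 0.405 in the labelled group, so both overlapped. These ratios were chosen after the values were seen and were not tested, and no share over other pairs of genes was computed.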
